A study of Mus musculus with 6 samples.

Results

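Granule cell identity genes are 32 genes, chosen by name, that mark the granule neurons of the cerebellum or act in making and maintaining them. The list was chosen with earlier results of these data known. All 32 were found among the 55098 genes of the deposited table, each on a single row, and all 32 were among the 17142 genes with enough counts to be tested. Whole cerebella of male mice were collected at postnatal day 60 and their RNA was sequenced, with 3 libraries labelled as Slc39a14 knock-out (KO, animals 2, 4 and 6) and 3 labelled as wild type (WT, animals 1, 3 and 5), each library from a different animal. Slc39a14 encodes ZIP14, a transporter of manganese and other metals, and the series title presents the KO mice as modelling dystonia-parkinsonism of early onset that manganese induces. No source used here gives the KO allele, the cells it acts in or the background strain.

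Granule cells are small glutamatergic neurons and by far the most numerous neurons of the cerebellum. They receive mossy fibre input in the granular layer and send parallel fibres to the dendrites of Purkinje cells. They arise from precursors of the rhombic lip under factors such as Pax6, Zic1, Barhl1 and Neurod1, and on maturing they switch on the GABA-A receptor subunits Gabra6 and Gabrd, the NMDA receptor subunit Grin2c and the vesicular glutamate transporter Slc17a7. Several of the 32 genes are also used by other cells: the nuclear factor I genes and Meis1 are known in glia and other neurons, and Zic genes in other cerebellar neurons. In RNA from whole tissue, fewer granule cells and less RNA per granule cell cannot be told apart.

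Total gene counts were 13912821 to 15754275 in KO libraries and 13805997 to 15788135 in WT libraries. Slc39a14 itself had 654, 572 and 640 counts in KO 2, 4 and 6 and 582, 646 and 598 counts in WT 1, 3 and 5, so that the gene count did not separate the labels, and every direction below rests on them. In a principal component analysis of 1000 genes, KO 4 and WT 5 were separated from the rest along the leading axis. This axis held 29.6% of the variance. The second axis held 26.9% and separated the genotypes. On it KO 2, 4 and 6 were at 16.7, 17.6 and 7.84 and WT 1, 3 and 5 at -10.3, -14.5 and -17.4. Values without KO 4, without WT 5 or without both stand beside the results that move most with them. The 32 genes had a median of 32.2 FPKM (counts scaled by gene length and library total), against 4.74 FPKM over all tested genes. Purkinje cell markers together had 9390 to 10389 CPM (counts brought to a common library size with TMM factors) in KO libraries and 8813 to 9853 CPM in WT libraries.

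The GC content of a transcript is the share of its bases that are G or C. It was related to how these genes varied between libraries (below), by a cause that was not tested, and it differs widely among them. The longest annotated transcripts of the 32 genes ran from 36.7% GC in Olfm3 to 62.1% GC in Grin2c, with a median of 50.5%. The middle 150 coding bases of Barhl1, from the GC-rich end, and of Gabra6 and Olfm3, from the GC-poor end, show the difference, with capitals marking G and C (GENCODE annotation of GRCm38, coding strand, 5′ to 3′). Over the whole coding sequence the GC content was 64.1% in Barhl1, 44.6% in Gabra6 and 44.8% in Olfm3.
Barhl1: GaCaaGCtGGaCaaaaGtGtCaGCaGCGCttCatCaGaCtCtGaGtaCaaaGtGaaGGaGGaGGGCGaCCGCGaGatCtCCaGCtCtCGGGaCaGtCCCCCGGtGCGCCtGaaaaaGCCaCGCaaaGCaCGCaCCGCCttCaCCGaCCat
Gabra6: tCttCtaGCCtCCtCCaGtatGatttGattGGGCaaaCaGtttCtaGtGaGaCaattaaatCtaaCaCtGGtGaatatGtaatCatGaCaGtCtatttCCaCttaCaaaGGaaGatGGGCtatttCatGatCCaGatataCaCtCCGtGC
Olfm3: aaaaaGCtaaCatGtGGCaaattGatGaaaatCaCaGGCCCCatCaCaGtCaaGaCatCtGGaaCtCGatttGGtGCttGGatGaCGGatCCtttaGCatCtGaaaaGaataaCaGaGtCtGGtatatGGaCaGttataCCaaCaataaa

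The starts of the GC-poor receptor gene Gabra6 and the GC-rich receptor gene Grin2c are shown as RefSeq promoters (250 bases before to 50 after the start, GRCm38.p6, minus strand), since Gabra6 is a classical target of nuclear factor I in granule cells. Capitals mark the motif TTGGCA of nuclear factor I in Gabra6 (chr11:42321023-42321322), found on the opposite strand, and the motif TGACAG of Meis factors in Grin2c (chr11:115267194-115267493), also on the opposite strand. The RefSeq table held a promoter for 25 of the 32 genes, and where it held several the nearest to the annotated 5′ end was used.
Gabra6: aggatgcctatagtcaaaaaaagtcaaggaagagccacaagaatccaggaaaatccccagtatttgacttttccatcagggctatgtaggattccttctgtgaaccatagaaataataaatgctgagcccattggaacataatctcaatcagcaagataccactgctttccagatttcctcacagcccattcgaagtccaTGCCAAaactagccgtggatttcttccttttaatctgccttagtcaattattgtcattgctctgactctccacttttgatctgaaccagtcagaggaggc
Grin2c: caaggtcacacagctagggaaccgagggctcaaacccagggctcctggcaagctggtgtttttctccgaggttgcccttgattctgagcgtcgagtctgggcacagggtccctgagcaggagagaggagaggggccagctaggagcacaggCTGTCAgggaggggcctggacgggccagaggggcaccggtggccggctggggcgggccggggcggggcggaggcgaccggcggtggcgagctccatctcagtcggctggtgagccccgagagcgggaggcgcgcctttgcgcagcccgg

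Motifs of the granule cell factors were counted in these promoters and in all 32851 RefSeq promoters of the same length. Both strands were searched, and the motifs do not contain each other. The motif TTGGCA was in 5 of 25 promoters (20%, against 14.1% of all), namely those of Gabra6, Neurod2, Rbfox3, Tiam1 and Zic5. The Meis motif TGACAG was in 6 (24%, against 19.2%), and the NeuroD E-box CAGATG in 4 (16%, against 17.2%). The ETS core CGGAAG was in 2 (8%, against 16.9%) and the Zic motif CAGCAGG in 1 (4%, against 10.5%), that of Fat2. For Fat2, Nfia, Nfix, Rbfox3 and Tiam1 the promoter held by the table lay 20262 (Nfix) to 190791 (Nfia) bases from the 5′ end that the gene has in the deposited table.

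The granule genes sat slightly lower in KO than in WT cerebellum, and no single gene passed the test. Of the 32 genes, 30 had a negative log2 fold change (KO minus WT), with a median of -0.11. Over all tested genes 51.2% were negative, with a median of -0.0036. The number of negative members was 28 to 31 under 5 other scalings of the libraries. It was 24 to 29 with single libraries left out, lowest without WT 3. The 32 genes share their libraries, so that they are not 32 separate observations, and their mean level in KO 6 lay above that in WT 5. They were also chosen with earlier results of these data known, so that the list is not independent of these data. None of the 32 was called at an adjusted p under 0.05, where 0.0467% of all tested genes were called (edgeR quasi-likelihood test with Benjamini-Hochberg adjustment over all genes). At an unadjusted p under 0.05, 3 of the 32 genes were lower in KO and none higher, beside 1.06% of all tested genes that were lower and 2.75% that were in either direction. These 3 were Tiam1, Zic4 and Svep1. The count of 3 was 1 without KO 2, 1 without KO 6, 0 without WT 1 and 0 without WT 3. In that order, 2.47%, 3.51%, 2.67% and 2.51% of all tested genes had such a p in either direction. The count was 5 without WT 5, where 3.78% of all tested genes had such a p in either direction. It was 7 without both KO 4 and WT 5, where 4.26% did. The median was -0.068 without KO 4, -0.16 without KO 6 and -0.12 without both KO 4 and WT 5. By the authors' deposited table, 29 of the 32 log2 fold changes were negative, with a median of -0.10, and none was called.

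For 7 of the 32 genes every KO library lay below every WT library, and for none did every KO library lie above. Over all tested genes 3.68% were separated in this way with KO lower. The 7 genes were Tiam1, Zic4, Svep1, Cadps2, Zic1, Reln and Sema6a, and they share their libraries, so that they are not 7 separate observations. By library totals alone the number was 5, beside 2.98% of all tested genes. With fewer libraries more genes are separated: 13 of the 32 were lower without WT 5, beside 9.38% of all tested genes, and 16 without both KO 4 and WT 5, beside 15.6%.

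**Figure D1:**
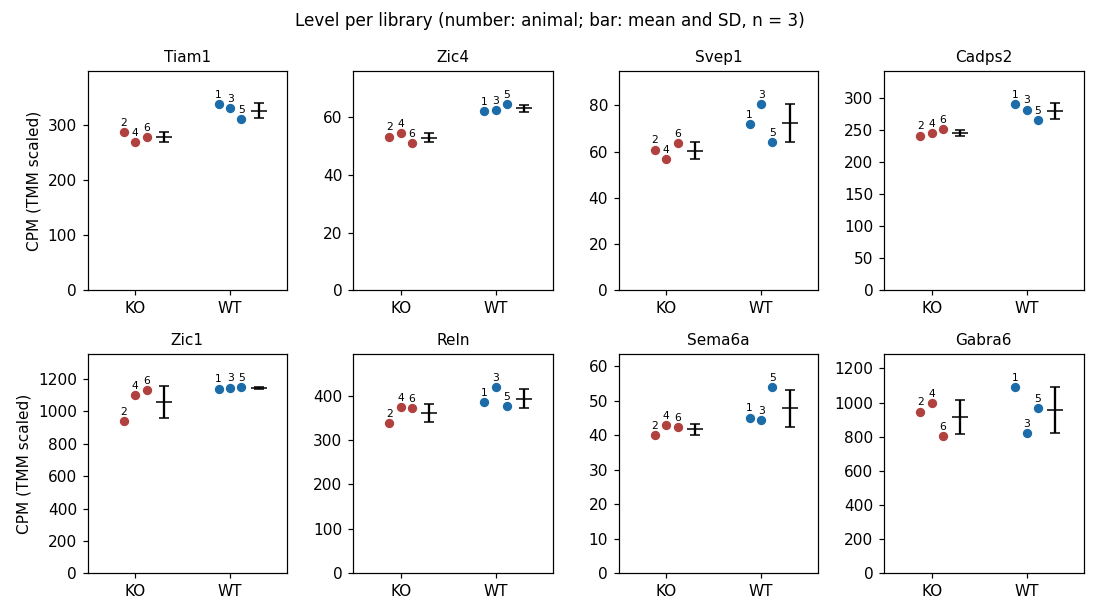
Level per library in TMM-scaled CPM (vertical axis, from 0) of the 7 genes whose groups did not overlap and of Gabra6; each point is a library, numbered by animal, with KO left of WT and the mean and SD beside the points (n = 3). In Zic4 the 3 KO libraries sit at 51.2 to 54.4 CPM and the 3 WT libraries at 62.3 to 64.5 CPM, while in Gabra6 the groups overlap.

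Of the 13 transcription factors 12 were negative, with a median log2 fold change of -0.10, and Zic4 had the lowest. Zic1 and Zic4 encode zinc finger factors of granule cell precursors and neurons, and the pair lies side by side on chromosome 9 (Zic1 at 91358058 to 91365810 on the minus strand, Zic4 at 91362413 to 91389348 on the plus strand, GRCm38.p6). Zic4 had 848, 779 and 713 counts in KO 2, 4 and 6 and 858, 980 and 880 counts in WT 1, 3 and 5. In CPM these were 53.3, 54.4 and 51.2 in KO and 62.3, 62.5 and 64.5 in WT. Neither group varied by much, and the gap between them was wider than the range within either. Zic4 thus had a log2 fold change of -0.25 (SE 0.094, 95% interval -0.46 to -0.043, edgeR adjusted p = 1.0), which is 16.1% lower in KO. The exons of Zic4 share 60 bases with those of Zic1, which had far more counts, and since no source used here says whether strand was used in counting, the count of Zic4 is uncertain to that extent.

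Zic1 was at 942, 1103 and 1129 CPM in KO 2, 4 and 6 and at 1141, 1147 and 1147 CPM in WT 1, 3 and 5. The WT libraries were nearly equal, and KO 2 was the lowest of all 6 (log2 fold change -0.11, SE 0.095, edgeR adjusted p = 1.0). Without KO 2 the log2 fold change of Zic1 was -0.036. Zic2 and Zic5, a second pair of neighbours, lie on chromosome 14, as does Slc39a14. Zic2 averaged 295 ± 16.8 in KO libraries and 309.6 ± 32.5 in WT libraries, and Zic5 averaged 75.6 ± 9.57 in KO libraries and 75.0 ± 9.09 in WT libraries (CPM, SD, n = 3 each). Neither differed by more than the spread between libraries, and the sign of Zic5 (0.010) turned negative with the library totals behind the FPKM values. Per length, on the FPKM scale, Zic1 averaged 176 ± 17.2 in KO and 193 ± 1.71 in WT, and was the second most abundant of the 32 genes. Zic4 averaged 4.86 ± 0.147 FPKM in KO and 5.85 ± 0.150 FPKM in WT.

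Neurod1 and Neurod2 encode basic helix-loop-helix factors that drive granule cell differentiation and survival. Neurod1 was at 316, 378 and 349 CPM in KO 2, 4 and 6 and at 376, 381 and 458 CPM in WT 1, 3 and 5. KO 4 lay just above WT 1, and WT 5 was the highest library (log2 fold change -0.22, SE 0.11, edgeR adjusted p = 1.0). Without WT 5 it was -0.12. Neurod2 was lowest where Neurod1 was highest, in KO 4 (102 CPM) among KO libraries and in WT 5 (102.5 CPM) among WT libraries (log2 fold change -0.14, SE 0.13).

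The nuclear factor I genes, which time the maturation of granule cells, were at -0.14 (Nfib), -0.10 (Nfix) and -0.094 (Nfia) on the log2 fold change scale, each within about 1 standard error of 0 (SE 0.15, 0.13 and 0.12). Etv1, an ETS factor tied to neuronal activity in maturing granule cells, averaged 533 ± 62.3 in KO libraries and 588 ± 73.9 in WT libraries (CPM, SD, n = 3 each), with a log2 fold change of -0.14 (SE 0.12). Meis1 (-0.026, SE 0.10) and the paired-box factor Pax6 (-0.0033, SE 0.089) were close to 0. The sign of Pax6 depended on the scaling. Barhl1, a homeobox factor, had the widest interval of the 32 genes (log2 fold change -0.0012, 95% interval -0.53 to 0.53), and its sign turned with the scaling too.

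Receptor and transmitter genes of the mature granule cell overlapped between the groups in all 5 cases, and all 5 were negative (median log2 fold change -0.078). Gabra6, which with Gabrd forms the receptors of tonic inhibition in these cells, was the most abundant of the 32 genes per length, at 349 ± 38.3 FPKM in KO and 369 ± 51.2 FPKM in WT (SD, n = 3 each). In CPM Gabra6 was at 947, 998 and 803 in KO 2, 4 and 6 and at 1088, 819 and 966 in WT 1, 3 and 5. The lowest KO library was KO 6 and the lowest WT library WT 3, and the groups overlapped (log2 fold change -0.064, SE 0.12, 95% interval -0.34 to 0.21). Gabrd averaged 212 ± 19.4 in KO libraries and 229 ± 41.1 in WT libraries (CPM; log2 fold change -0.11, SE 0.14).

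Grin2c was at 445, 348 and 496 CPM in KO 2, 4 and 6 and at 523, 510.2 and 328 CPM in WT 1, 3 and 5. WT 5 was the lowest of all 6 libraries and KO 4 the next. The difference between genotypes was small beside that spread (log2 fold change -0.078, SE 0.18). Grm4, a metabotropic glutamate receptor of parallel fibre terminals, was at -0.17 (SE 0.16), and Slc17a7 at -0.034 (SE 0.16); both had their lowest values of each genotype in WT 5 and KO 4. All 5 genes had an edgeR adjusted p of 1.0.

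Genes of adhesion, guidance and the extracellular space gave 3 of the 7 separated genes, and 7 of the 8 in this group were negative (median log2 fold change -0.13). Fat2, an atypical cadherin of granule cells and their parallel fibres, was the most abundant of this group in counts and per length. It was at 845, 808 and 922 CPM in KO 2, 4 and 6 and at 1002, 1059 and 908 CPM in WT 1, 3 and 5. KO 6 lay above WT 5, and the other KO libraries lay below every WT library (log2 fold change -0.21, SE 0.097, edgeR adjusted p = 1.0).

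Svep1, a large extracellular matrix protein, was at 60.8, 56.6 and 63.7 CPM in KO and at 71.9, 80.5 and 64.0 CPM in WT. The groups did not overlap, but KO 6 and WT 5 were almost equal (log2 fold change -0.26, SE 0.11, 16.4% lower in KO, edgeR adjusted p = 1.0). Without WT 3 the log2 fold change of Svep1 was -0.17. Reln, the secreted protein that guides Purkinje cell placement, was at 338, 375 and 371 CPM in KO and at 385, 418 and 376 CPM in WT. KO 4 and WT 5 differed by less than the spread within either group, and the log2 fold change was -0.12 (SE 0.091), against -0.077 without KO 2 and -0.072 without WT 3. Sema6a, a semaphorin involved in granule cell migration, was at 39.9, 42.9 and 42.3 CPM in KO and at 45.1, 44.3 and 53.8 CPM in WT, with WT 5 highest (log2 fold change -0.19, SE 0.11, and -0.096 without WT 5).

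Cntn2, the axonal adhesion protein TAG-1, was at 494, 395 and 531 CPM in KO and at 510.0, 553 and 488 CPM in WT. KO 4 stood far below the rest, and the groups overlapped (log2 fold change -0.13, SE 0.12, and -0.010 without KO 4). Crtam, an immunoglobulin-type adhesion receptor best known from lymphocytes, was at -0.082 (SE 0.14). The olfactomedin Olfm3 was at -0.052 (SE 0.15). Il20rb, a subunit of receptors for the interleukin-20 family, was the only member of the group above 0 (0.024, SE 0.13). The other subunits of those receptors, Il20ra and Il22ra1, had 14 and 2 counts in the 3 KO libraries and 7 and 0 counts in the 3 WT libraries together, too few to be tested.

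All 6 genes of signalling, secretion and RNA binding were negative (median log2 fold change -0.12), and Tiam1 had the smallest unadjusted p of the 32. Tiam1 activates the small GTPase Rac and acts in the growth of neurites and spines; the gene lies on chromosome 16 (89787111 to 90143769, minus strand). It had 4563, 3864 and 3870 counts in KO 2, 4 and 6 and 4656, 5181 and 4240 counts in WT 1, 3 and 5. In CPM it was at 287, 269.8 and 278 in KO and at 338, 331 and 311 in WT, with every KO library below every WT library. Its log2 fold change came to -0.23 (SE 0.085, 95% interval -0.42 to -0.040, edgeR adjusted p = 1.0), which is 14.8% lower in KO. Chn2, which encodes a chimaerin that turns Rac off, was at 601, 548 and 558 CPM in KO and at 564, 666 and 566 CPM in WT, with overlapping groups (log2 fold change -0.074, SE 0.098).

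Cadps2, which primes dense-core vesicles for release and is linked to the secretion of neurotrophins by granule cells, was at 242, 246 and 251 CPM in KO and at 291, 283 and 266 CPM in WT. The groups did not overlap and the KO libraries lay close together (log2 fold change -0.18, SE 0.085, about 12% lower in KO, edgeR adjusted p = 1.0). Rbfox3, the splicing factor known as the neuronal antigen NeuN, was at 291, 259 and 355 CPM in KO and at 332, 389 and 297 CPM in WT, with overlapping groups (-0.17, SE 0.14, and -0.30 to -0.055 with single libraries left out). The scaffold gene Cnksr3 was at -0.072 (SE 0.10). Mab21l1 was at -0.081 (SE 0.14), and its count is uncertain because 39.4% of its exon bases lie over exons of Nbea, an abundant gene on the other strand.

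**Figure D2:**
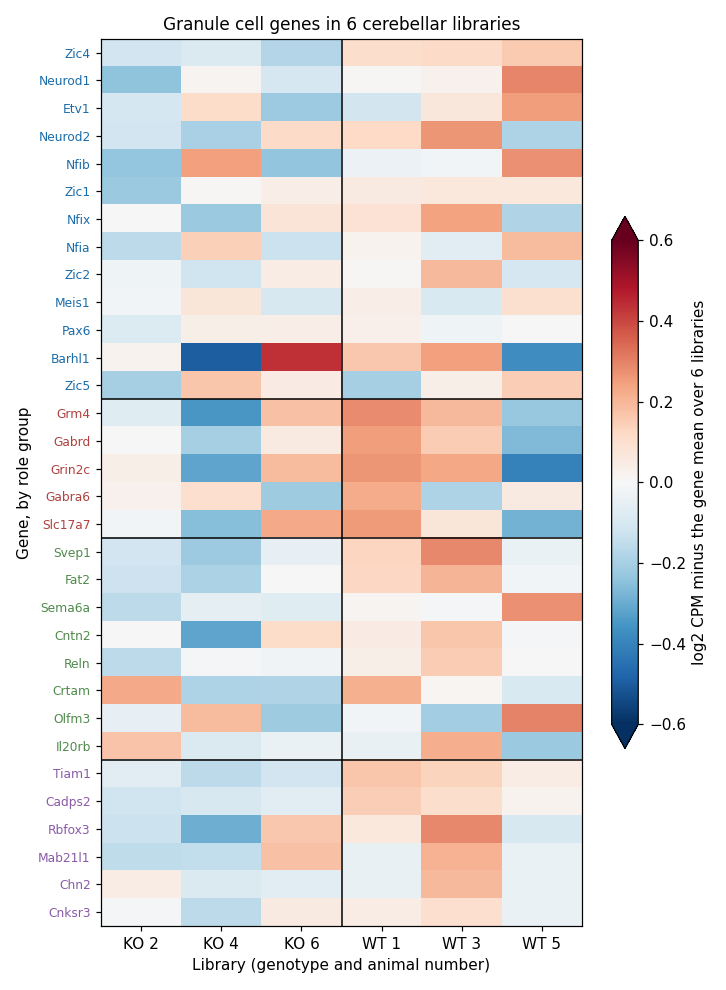
Level of each of the 32 genes (rows, coloured and grouped by role) in each library (columns, KO left of WT), as log2 CPM minus the gene's mean over the 6 libraries; the colour scale stops at 0.6 either way. KO 4 and WT 5 are both low in Grin2c and Barhl1 and both high in Nfib and Olfm3.

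Beyond genotype, a pattern in the 32 genes was shared by a KO library and a WT library. For each gene, WT 5 was compared with the mean of WT 1 and WT 3, and KO 4 with the mean of KO 2 and KO 6, on the log2 CPM scale; this comparison was chosen after the values were seen. Grin2c was at -0.43 in KO 4 and -0.65 in WT 5. Barhl1 was at -0.72 in KO 4 and -0.57 in WT 5, Grm4 at -0.40 in KO 4 and -0.47 in WT 5, and Slc17a7 at -0.36 in KO 4 and -0.45 in WT 5. Olfm3 lay on the other side, at 0.32 in KO 4 and 0.41 in WT 5, as did Nfib (0.48 in KO 4 and 0.30 in WT 5), Nfia (0.29 in KO 4 and 0.22 in WT 5) and Etv1 (0.27 in both). Both libraries deviated the same way in 31 of the 32 genes, downwards in 19 and upwards in 12. Over the tested genes of at least 1 CPM, 36.7% were lower in both and 35.2% higher in both. The exception among the 32 was Reln, at 0.082 in KO 4 and -0.093 in WT 5.

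The direction followed GC content. Of the 16 genes over 50% GC, 15 were lower in both KO 4 and WT 5, beside 65.1% of all genes in that range. Of the 16 genes up to 50% GC, 12 were higher in both and 4 lower in both, beside 58.3% and 11.9% of all genes in that range. Across the 32 genes the deviation and the GC content had a Pearson r of -0.84 in KO 4 and -0.85 in WT 5 (Spearman rho -0.85 in KO 4 and -0.84 in WT 5), given as a description since genes of a library share its preparation and depth. Over the 15869 tested genes of at least 1 CPM with a GC value, the Pearson r was -0.50 in KO 4 and -0.52 in WT 5, so that the relation was not particular to granule genes. The log2 fold change of KO minus WT had no such relation (r = -0.0012 across the 32 genes), with a median of -0.12 in the 16 genes over 50% GC and -0.088 in the other 16. Each genotype holds 1 of these libraries.

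**Figure D3:**
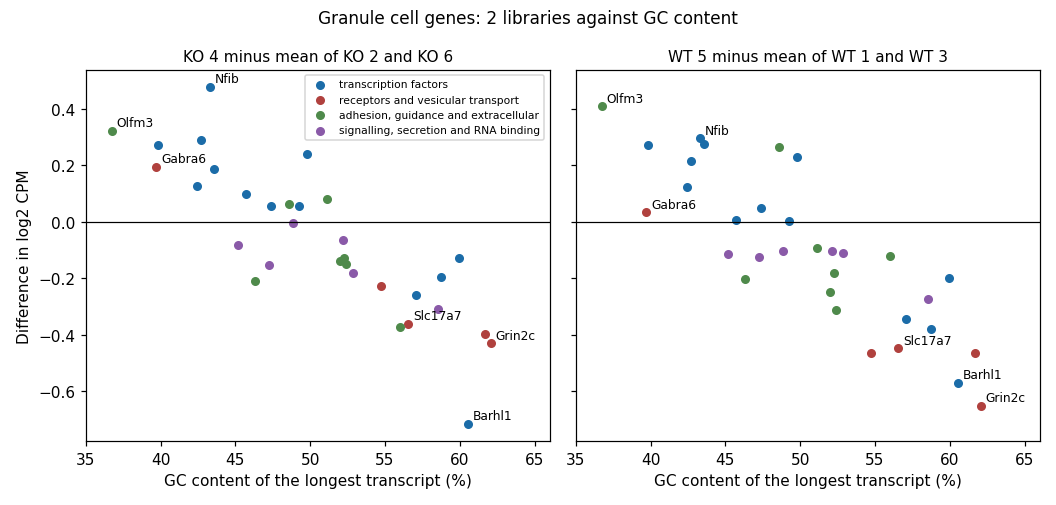
Deviation of KO 4 (left) and WT 5 (right) from the mean of the other libraries of the same genotype, in log2 CPM (vertical axis), against the GC content of the longest transcript in percent (horizontal axis); each point is 1 of the 32 genes, coloured by role. Both panels slope downwards, with Olfm3 at the GC-poor end above 0 and Grin2c and Barhl1 at the GC-rich end below 0.

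With an offset per library for GC content and gene length, added after the data were seen, most granule genes varied less between animals of a genotype. The offset was fitted to these same libraries and takes out variation that follows GC content and length. A lower SD in genes that follow GC content is therefore partly built in. The SD within genotypes was lower with the offset in 23 of the 32 genes and higher in 9, among them Chn2 (0.16 with the offset and 0.11 without it) and Zic1 (0.12 with it and 0.10 without it). The median SD within genotypes, on the log2 scale, was 0.093 with the offset and 0.17 without it over the 32 genes, and 0.15 with it and 0.21 without it over all tested genes. The SD of Grm4 was 0.049 with the offset and 0.27 without it, and that of Grin2c 0.095 with it and 0.32 without it. The median log2 fold change of the 32 genes was -0.10 with the offset, and 29 were negative. None was called at an adjusted p under 0.05, beside 0.13% of all genes tested in that fit, and the smallest edgeR adjusted p was 0.517, for Tiam1. At an unadjusted p under 0.05, 9 of the 32 genes were lower in KO, beside 2.84% of all genes tested. They were Tiam1, Zic4, Svep1, Cadps2, Fat2, Neurod1, Grm4, Neurod2 and Rbfox3.

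For these 9 genes the log2 fold changes with the offset ran from -0.24 in Neurod1 (95% interval -0.39 to -0.093) to -0.15 in Neurod2 (-0.29 to -0.011). Gabra6 was at -0.096 (95% interval -0.32 to 0.13), Grin2c at -0.061 (-0.21 to 0.086) and Slc17a7 at -0.034 (-0.20 to 0.13). The number of genes with every KO library below every WT library was 12 of 32, beside 6.19% of all genes in that fit. Of the 7 genes separated without the offset 5 were among them, while Reln (log2 fold change -0.067 with the offset) and Zic1 (-0.12) then overlapped. The offset was fitted to the same libraries and is taken as known by the test, so that these p-values leave out its own error.

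**Figure D4:**
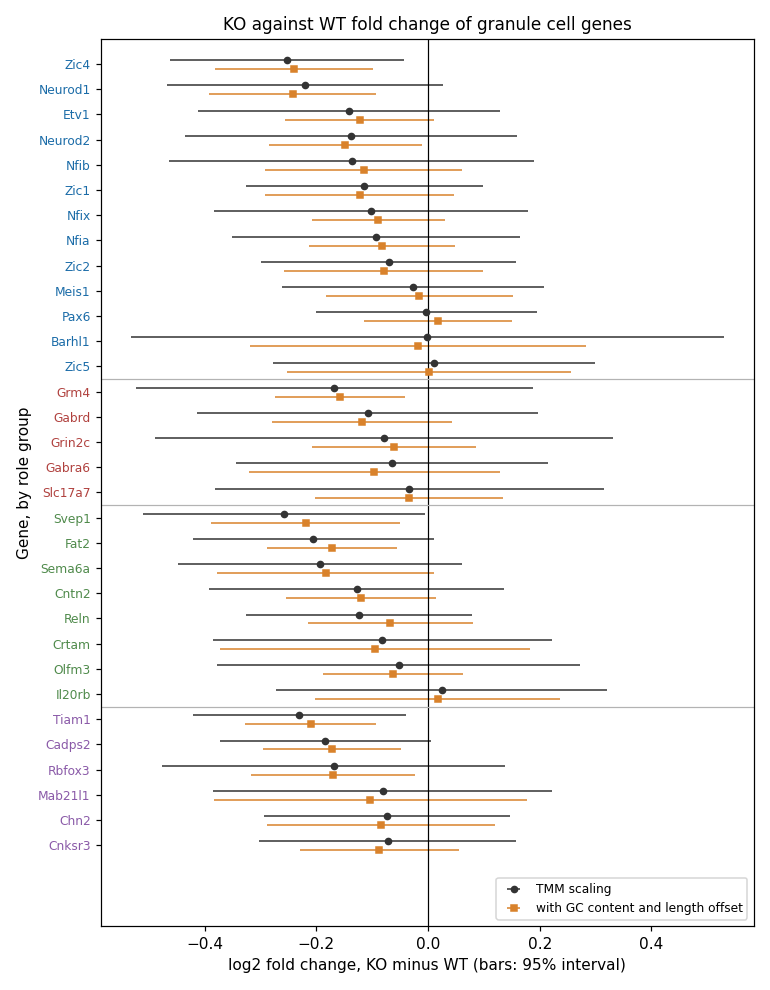
Log2 fold change of KO minus WT (horizontal axis) for the 32 genes (rows, grouped and coloured by role), with 95% intervals, under TMM scaling (black circles) and with the GC content and length offset (orange squares). Most points lie left of 0 in both fits, and with the offset all 32 intervals are narrower, as in Grm4 and Grin2c. The intervals are narrower also in the 9 genes, such as Chn2, whose SD within genotypes was higher with the offset.

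Per library, the 32 genes made up 0.935%, 0.922% and 0.974% of all gene counts in KO 2, 4 and 6 and 1.04%, 1.04% and 0.962% in WT 1, 3 and 5. KO 6 thus lay above WT 5. The mean of the centred log2 CPM over the 32 genes was -0.067, -0.098 and -0.001 in KO 2, 4 and 6 and 0.075, 0.11 and -0.014 in WT 1, 3 and 5, with the same overlap. With the offset it was -0.071, -0.063 and -0.028 in KO and 0.060, 0.087 and 0.014 in WT, and the groups did not overlap. KO 6 was the highest KO library and WT 5 the lowest WT library in each of these measures.

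**Figure D5:**
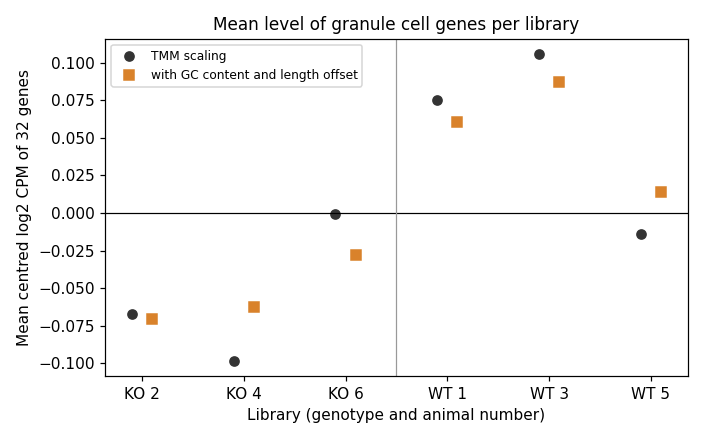
Mean of the centred log2 CPM over the 32 granule genes (vertical axis) in each library (horizontal axis, KO left of WT), under TMM scaling (black circles) and with the GC content and length offset (orange squares). Under TMM scaling KO 6 (-0.001) lies above WT 5 (-0.014), and with the offset all 3 KO libraries lie below 0 and all 3 WT libraries above it.

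Markers of choroid plexus and most markers of microglia had higher group means in KO beside these genes, without a call. All 10 choroid plexus markers were positive, and 9 were at an unadjusted p under 0.05 (Ttr, Kcne2, Folr1, Clic6, Cldn2, Kl, Sostdc1, Prlr and Mfrp). None was called. Of all 17142 tested genes, 289 were higher in KO at such a p. The summed level was 632 to 1891 CPM in KO and 164 to 779 CPM in WT, with KO 6 below WT 1. The groups overlapped in each of the 10 markers, and none was at 0 in any library. The 10 markers share their libraries, so that they are not 10 separate observations. All 10 microglia markers had a positive log2 fold change too, and 5 were at an unadjusted p under 0.05, Ctss, C1qa, Tmem119 and C1qc among them. None was called (smallest edgeR adjusted p = 0.276, for Ctss). P2ry12 was level between the groups, at 0.0013 (SE 0.16). It averaged 11.161 CPM in KO libraries and 11.162 CPM in WT libraries. Cx3cr1 was at 0.11 (SE 0.19), with overlapping groups. With the GC content and length offset 1 of the 10 was negative. The summed level of the 10 markers was 151 to 197 CPM in KO and 120 to 132 CPM in WT. The summed level of the 32 granule genes was 9400 ± 289 CPM in KO libraries and 10225 ± 419 CPM in WT libraries (SD, n = 3 each). Whether these cell types have a part in the lower granule gene levels was not tested.

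Purkinje cell markers were mostly on the other side of 0 from granule genes, with 9 of 10 positive and a median log2 fold change of 0.090. None of the 10 was called, at an unadjusted p under 0.05 or separated between the genotypes. Their summed levels overlapped, at 9869 ± 501 CPM in KO libraries and 9373 ± 524 CPM in WT libraries (SD, n = 3 each). Molecular layer and Golgi interneuron markers (10 tested, 4 positive, median -0.0085), astrocyte and Bergmann glia markers (10 tested, 7 positive, median 0.052), oligodendrocyte markers (10 tested, 3 positive, median -0.067) and endothelial and mural cell markers (10 tested, 6 positive, median 0.053) had no called member. Unipolar brush cell markers (5 tested, 2 positive, median -0.017) had none called either, with Lmx1a at an unadjusted p under 0.05 (2.39 ± 0.950 in KO libraries and 0.845 ± 0.284 in WT libraries, in CPM).

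Other genes that granule neurons express were mostly negative too, and none was called. Of 16 such genes 13 were negative, with a median log2 fold change of -0.089, 0 called and 0 at an unadjusted p under 0.05. Calretinin (Calb2) averaged 258 ± 37.2 in KO libraries and 294 ± 30.7 in WT libraries (CPM, SD, n = 3 each), a log2 fold change of -0.19 (SE 0.12). Cbln1, the secreted organizer of parallel fibre synapses, was at -0.12 (SE 0.12) and Cbln3 at -0.093 (SE 0.088). The potassium channel gene Kcnk9 was the only gene of the list whose groups did not overlap (-0.16, SE 0.090). Over all tested genes 3.68% were separated with KO lower. The A-type channel gene Kcnd2 (0.010) and the NMDA subunit gene Grin2a (0.014) were near 0.

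Genes of precursors and newborn granule neurons included some that were hardly detected. Atoh1, which defines the precursors, and Nhlh1 had 0 counts in all 6 libraries, and the cell cycle gene Mki67 had 15, 19 and 15 counts in KO and 13, 5 and 19 counts in WT. Of 15 genes tested of this list, 8 were negative (median -0.069) and none was called. Ptch1, the hedgehog receptor, averaged 268 ± 14.8 in KO libraries and 328 ± 28.7 in WT libraries (CPM, SD, n = 3 each). Its log2 fold change was -0.29 (SE 0.098, edgeR unadjusted p = 0.0147, adjusted p = 1.0), and its groups did not overlap. Which cells the Ptch1 RNA came from was not tested. The NMDA subunit Grin2b, which granule cells exchange for Grin2c as they mature, was higher in every KO library than in every WT library. It averaged 53.3 ± 3.60 CPM in KO libraries and 46.3 ± 2.34 CPM in WT libraries (log2 fold change 0.20, SE 0.10, edgeR adjusted p = 1.0). Of the 15 genes tested, 2 were separated with KO lower and 1 with KO higher, beside 3.68% and 3.58% of all tested genes.

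Paralogs of the 32 genes (30 tested, 20 negative, median -0.045) had no called member. Partners and receptors of the proteins (17 tested, 16 negative, median -0.070) had none called either. Cntnap2, a partner of Cntn2, averaged 75.0 ± 0.705 in KO libraries and 86.6 ± 5.08 in WT libraries (CPM), which gives -0.21 on the log2 scale (SE 0.093, edgeR adjusted p = 1.0). Bdnf, a neurotrophin made by granule cells, averaged 15.8 ± 2.01 in KO libraries and 21.4 ± 3.93 in WT libraries (CPM; -0.43, SE 0.17, edgeR adjusted p = 1.0). Both had an unadjusted p under 0.05, the only 2 of the 17 that did, beside 1.06% of all tested genes that were lower at such a p. The Bdnf groups overlapped. Cntnap2 was the only 1 of the 17 separated with KO lower, beside 3.68% of all tested genes. Of the 30 paralogs, 2 were separated with KO lower and 2 with KO higher, beside 3.68% and 3.58% of all tested genes.

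Ratios of related genes within a library do not depend on how libraries are scaled, and none of the 7 ratios given here separated the genotypes (exact two-sided permutation test, Benjamini-Hochberg p = 1.0 for each over the 9 ratios computed; 3 against 3 libraries allow no p below 0.1). The log2 ratio of Grin2c to Grin2b was 3.17, 2.62 and 3.20 in KO 2, 4 and 6 and 3.58, 3.42 and 2.78 in WT 1, 3 and 5, with KO 4 and WT 5 lowest (difference -0.27, exact permutation p = 0.5). Slc17a7 to Slc17a6, the vesicular transporter of other glutamatergic neurons, differed by 0.44 between the genotypes, Neurod2 to Neurod1 by 0.086 and Zic1 to Zic4 by 0.13. Zic2 to Zic5 differed by -0.077, Nfix to Nfia by -0.00068, and Cadps2 to its paralog Cadps by -0.21 (exact permutation p = 0.2, the smallest of the 7). With single libraries left out the difference ranged from -0.51 to -0.080 for Grin2c to Grin2b, from 0.12 to 0.75 for Slc17a7 to Slc17a6 and from 0.061 to 0.22 for Zic1 to Zic4.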

How the data were processed

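RNA was extracted with TRIZOL and libraries were made by a sequencing company, per the labels' protocols. The submitters' processing notes name HISAT2, DESeq2 (neither with a version) and GRCm38.p6, and no source used here gives the counting program. The deposited counts are whole numbers per gene and library, not normalized. The deposited FPKM values are counts per gene length and library total. The authors' group means are a signal of scaled counts, which was not used, and their log2 fold changes and p-values compare KO with WT in the authors' deposited table.

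The test was edgeR 4.0.16 under R 4.3.3 (quasi-likelihood F test, TMM, filterByExpr by group, Benjamini-Hochberg over 17142 genes). Log2 fold changes are KO minus WT, each SE is the size of the log2 fold change divided by the square root of F, and CPM are TMM-scaled. The GC content is that of the longest GENCODE vM21 transcript, found for all 32 members. The GC content and length offset is a natural spline per library (5 degrees of freedom each) of log2 CPM (prior count 2). Ratios used a pseudocount of 0.5 counts. Pairs of libraries differed by chi-square values of 5.30 to 22.4 per degree of freedom, so none was a second copy of another. The edgeR step was tested on simulated data, where it called 22% of genes changed by 1.5 fold, 62% by 2 fold, 100% by 4 fold and 94% by 8 fold. Smaller changes were not simulated, and the largest among the 32 genes was smaller (Svep1, 16.4% lower in KO). The absence of a call among the 32 genes is therefore limited by the power of the test. Alternatives were other scalings and filters, DESeq2 1.42.0, limma-voom (limma 3.58.1), robust shrinkage, libraries left out and the offset. Values in every library were printed for members with an unadjusted p under 0.05, without overlap between groups or among the 2 highest in FPKM of their role group; other genes of the lists were named at an unadjusted p under 0.05, in a ratio or as said. Other genes named in these lists (Calb2, Cbln1, Cbln3, Kcnk9, Kcnd2, Grin2a, Atoh1, Nhlh1, Mki67, P2ry12, Cx3cr1, Il20ra and Il22ra1) were chosen after their values were seen. The members and lists were chosen with earlier results of these data known. Python 3.11.15, pandas 2.3.3, scipy 1.17.1 and matplotlib 3.10.9 were used. 2 of the 9 ratios and 1 microglia marker are not reported here by name.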

Additional observations from a re-analysis of the deposited data

How the results depend on the processing

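No member was called by any of the 19 alternatives, and 18 of the 32 members were negative in all of them. No paired analysis was possible because no label used here pairs a KO animal with a WT animal. The number of genes called over the whole table, 8, was 142 without the low-count filter, 38 by DESeq2, 40 without WT 5 and KO 4 and 22 with the GC content and length offset, and 0 to 28 with single libraries left out. Members without overlap between groups, 7, numbered 16 without WT 5 and KO 4, 12 with the offset (5 of the 7 among them) and 7 to 13 with single libraries left out. The share of all tested genes without overlap in either direction was 7.26% over all 6 libraries, 31.1% without WT 5 and KO 4 and 13.4% to 18.5% with single libraries left out. With single libraries left out the median of the members ranged from -0.16 to -0.068, that of other granule neuron genes from -0.10 to -0.050 and that of precursor genes from -0.23 to 0.038.

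Signs of members near 0 turned. Pax6 was at 0.014 by library totals, 0.0037 by upper quartile, 0.0023 without the filter and 0.017 with the offset. Barhl1 was at 0.016 by library totals, 0.0048 by upper quartile, 0.0030 without the filter, 2.67e-05 by DESeq2 and 0.040 without WT 5 and KO 4. Zic5 was at -0.0044 by FPKM totals, and Il20rb at -0.021 without WT 5 and KO 4. With single libraries left out, Barhl1 ranged from -0.25 to 0.21, Pax6 from -0.024 to 0.036, Il20rb from -0.072 to 0.16, Zic5 from -0.080 to 0.11 and Slc17a7 from -0.17 to 0.093. Grin2c ranged from -0.26 to 0.055, Gabra6 from -0.16 to 0.038, Olfm3 from -0.16 to 0.10, Meis1 from -0.073 to 0.017 and Crtam from -0.23 to 0.0067. Nfix ranged from -0.21 to 0.0039, Chn2 from -0.11 to 0.015, Zic2 from -0.13 to 0.020 and Mab21l1 from -0.20 to 0.013. The ratio differences ranged from -0.13 to 0.23 for Neurod2 to Neurod1, -0.22 to 0.046 for Zic2 to Zic5 and -0.19 to 0.18 for Nfix to Nfia. The cause of these changes was not tested. Pseudocounts of 0 and 5 turned no ratio.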
